A study of Mus musculus with 24 samples.

Results

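The DNA replication and S-phase genes are 43 mouse genes listed by name, from the proteins that prepare replication origins to the enzymes that supply nucleotides and the cyclins of the G1/S transition. All 43 were found among the 51912 genes of the deposited table, and all 43 were among the 16454 genes that passed the filter on low values and were tested. They were followed in bulk RNAseq of dissected archicortex (ARK), the medial edge of the developing cortex that contains the cortical hem and the dentate neuroepithelium. The 24 libraries form 6 groups of 4, from embryos of a mixed C57BL/6J;MF1 background. At E13.5 the groups were *Sox9fl/fl;Sox1Cre* mutants (libraries A1 to A4), *Sox9+/+;Sox1Cre* controls (A5 to A8), *Sox9fl/fl;NestinCre* mutants (A17 to A20) and *Sox9+/+;NestinCre* controls (A21 to A24). At E12.5 they were *Sox9fl/fl;Sox1Cre* mutants (A9 to A12) and *Sox9+/+;Sox1Cre* controls (A13 to A16). Every group carries a Cre, so that mutants and controls of a line differ at *Sox9* alone by label. The lines differ in when and where *Sox9* is lost: early and across the neural primordium with the targeted *Sox1Cre* allele, and later, with the hem largely spared, with the *NestinCre* transgene. The labels do not say whether a library holds 1 embryo or several, so *p*-values measure the spread between these libraries. The libraries held between 16163560 and 49445219 reads on genes (median 23016925).

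Before a cell copies its genome, the origin recognition complex, CDC6 and CDT1 load the MCM2-7 helicase on DNA, and geminin blocks reloading. CDC45 and the GINS complex then turn the helicase on, and polymerases copy both strands behind it, held by the PCNA clamp that the RFC complex loads. Many of these genes are transcribed at the G1/S transition under E2F factors, and in the embryonic cortex they mark the dividing progenitors of the ventricular zone. In bulk tissue, fewer cells of a type and less RNA per cell cannot be told apart.

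The listed genes fall into 8 roles. Origin licensing has 11 (*Orc1*, *Orc6*, *Cdc6*, *Cdt1*, *Gmnn*, *Mcm2*, *Mcm3*, *Mcm4*, *Mcm5*, *Mcm6* and *Mcm7*). Helicase activation has 6 (*Mcm10*, *Cdc45*, *Gins1*, *Gins2*, *Gins3* and *Gins4*), and polymerases with primase have 8 (*Pola1*, *Pola2*, *Prim1*, *Prim2*, *Pold1*, *Pold2*, *Pole* and *Pole2*). The clamp, its loader and the RPA proteins that coat single-stranded DNA have 9 (*Pcna*, *Rfc1*, *Rfc2*, *Rfc3*, *Rfc4*, *Rfc5*, *Rpa1*, *Rpa2* and *Rpa3*). *Fen1* and *Lig1* trim and seal Okazaki fragments, *Rrm1*, *Rrm2*, *Tyms* and *Tk1* make deoxynucleotides, *Uhrf1* guides methylation of the new strand, and *Ccne1* and *Ccne2* encode the E cyclins. Per kilobase of principal transcript, the mean level over the 24 libraries was highest for *Pcna*, at 5458 normalized counts, followed by *Mcm6* at 2741 and *Mcm7* at 2698. The 6 *Mcm2* to *Mcm7* genes, whose proteins form 1 ring, spanned 1378 (*Mcm4*) to 2741 per kilobase. The GINS genes spanned 160.4 (*Gins3*) to 686.3 (*Gins4*), and *Orc1* was lowest of all at 72.9.

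Many promoters of the listed genes held letters that E2F factors are known to recognise. RefSeq windows of 300 bases, from 250 before to 50 after a gene's start (build GRCm38.p6), were at hand for 34 of the 43 genes, in 40 windows. *Mcm4*, *Gmnn*, *Gins4*, *Gins1*, *Rfc2*, *Ccne2*, *Gins2*, *Pole* and *Prim2* had no window. The letters TTTCGCGC, TTTGGCGC or TTTCCCGC were searched on both strands (on the other strand GCGCGAAA, GCGCCAAA and GCGGGAAA), and matches may overlap. They occurred in 14 of 40 windows (35%), beside 1.84% of all 32851 windows and 3.11% of the 14915 windows of other tested genes. The 14 genes were *Cdc6*, *Cdt1*, *Gins3*, *Lig1*, *Mcm3*, *Mcm5*, *Mcm6*, *Mcm7*, *Orc1*, *Pola1*, *Pold1*, *Pole2*, *Rfc3* and *Uhrf1*. The CCAAT box (CCAAT) was in 60% of the windows, beside 37.4% of all windows and 37.6% of those of other tested genes. The CHR letters (TTTGAA) were in 5 of the 40, beside 17.9% of all and 11.9% of those of other tested genes. The median GC content was 59.2% in the windows of listed genes and 52.7% in all windows. 4 promoters are shown, the 250 bases before the RefSeq start, 5′ to 3′ on the gene's strand, with the E2F letters in capitals. *Mcm6* (chr1:128359706-128359955, minus strand) and *Mcm5* (chr8:75109259-75109508, plus strand) are helicase genes with matches on both strands within 1 run of 12 bases, and *Mcm6* has another match nearer the start. *Rrm2* (chr12:24708004-24708253, plus strand) and *Rfc1* (chr5:65335640-65335889, minus strand) are among the genes described in full below, and these letters are not in their windows.
Mcm6: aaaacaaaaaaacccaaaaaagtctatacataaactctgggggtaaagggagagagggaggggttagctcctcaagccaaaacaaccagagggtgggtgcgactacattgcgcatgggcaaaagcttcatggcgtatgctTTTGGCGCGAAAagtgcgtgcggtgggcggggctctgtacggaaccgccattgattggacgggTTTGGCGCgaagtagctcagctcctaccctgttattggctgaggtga
Mcm5: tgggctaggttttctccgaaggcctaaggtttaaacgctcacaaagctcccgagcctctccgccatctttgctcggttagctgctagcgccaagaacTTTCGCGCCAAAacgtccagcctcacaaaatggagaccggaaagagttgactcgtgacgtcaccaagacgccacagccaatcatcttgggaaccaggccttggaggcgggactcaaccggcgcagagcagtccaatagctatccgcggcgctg
Rrm2: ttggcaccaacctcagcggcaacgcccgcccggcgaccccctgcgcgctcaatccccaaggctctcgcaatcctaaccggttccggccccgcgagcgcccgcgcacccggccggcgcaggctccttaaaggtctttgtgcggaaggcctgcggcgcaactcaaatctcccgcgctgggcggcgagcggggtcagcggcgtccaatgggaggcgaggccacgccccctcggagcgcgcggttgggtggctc
Rfc1: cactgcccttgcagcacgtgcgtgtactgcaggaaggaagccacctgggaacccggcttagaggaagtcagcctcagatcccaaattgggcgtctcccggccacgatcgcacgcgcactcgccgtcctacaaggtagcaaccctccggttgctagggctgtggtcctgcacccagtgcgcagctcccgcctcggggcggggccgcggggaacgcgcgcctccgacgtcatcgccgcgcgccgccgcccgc

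A normalized count is an estimated read count divided by the size factor of its library. Changes are log2 differences of normalized count + 1 between group means in a limma fit to all 24 libraries, and a gene passed the threshold, or rose or fell, at a Benjamini-Hochberg adjusted *p* under 0.05 over the 16454 genes. *Sox9*, the targeted gene (ENSMUSG00000000567, chr11:112782224-112787760, plus strand), had 3563, 2828, 3384 and 3677 normalized counts in *Sox1Cre* mutants and 5218, 5912, 5449.6 and 5731 in controls at E13.5. At E12.5 it had 2785, 1733, 2593 and 1928 in mutants and 4391, 5265, 4237 and 4194 in controls. In the *NestinCre* line it had 3089, 2997, 3083 and 3369 in mutants and 5636, 4979, 4586 and 5406 in controls. In each comparison all 4 mutants lay below all 4 controls, and *Sox9* fell by 0.74, 1.02 and 0.71 on the log2 scale (limma adjusted *p* = 0.0021, 6.28e-05 and 0.0297). The call held in 8 of 8 fits that left out a library in both *Sox1Cre* comparisons and in 1 of 8 in the *NestinCre* line (the one without A23), where the change lay between -0.77 and -0.67 (adjusted *p* up to 0.109). No library had a *Sox9* level that went against its label. The study reports that Cre removes only part of the floxed gene and that an exon left in place is still expressed in mutants. Counts over the whole gene can therefore include reads from the deleted allele, and they do not measure how much functional *Sox9* remained. Of the archicortex and cortical hem genes, 11 of 11 were tested and none was at 0 in any library, with *Lhx2* the most abundant, while 4 of 9 ventral telencephalon genes did not pass the filter.

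Some libraries stood apart from their group. A1, a *Sox1Cre* mutant at E13.5, had the lowest summed level of choroid plexus genes of all 24 libraries (7609 normalized counts, against 64463 to 86648 in A2 to A4), and also the lowest sums for meninges, endothelium and microglia. When limma estimated a weight per library over all genes, A1 received 0.183 and A5 0.458, the lowest of the 24. Both also had the highest mean level of the listed genes in their group, so that leaving them out also narrows the spread of these genes. For the listed genes, the group means, the median changes and the numbers past the threshold that rest on them are also given without A1, A5 or both. Other counts and medians of the listed genes, and those of the other gene lists, are given with all libraries only. A18, a *NestinCre* mutant, had the highest sum of the 24 for ventral telencephalon genes (2155, against 1032 to 1172 in the other 3 of its group) and the lowest choroid plexus sum of its group (19766). By the level of *Xist* and Y-linked genes, the 4 *Sox1Cre* controls at E12.5 were female and the 4 at E13.5 male. The other groups held both sexes.

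The listed genes moved together from library to library. Their mean of log2(normalized count + 1) was 10.86, 10.57, 10.61 and 10.51 in A1 to A4 and 10.89, 10.72, 10.59 and 10.55 in A5 to A8, so that A1 and A5 lay well above the libraries beside them. It was 10.62, 10.80, 10.55 and 10.71 in A9 to A12 and 10.86, 10.83, 10.76 and 10.73 in A13 to A16. In the *NestinCre* line it was 10.75, 10.81, 10.72 and 10.73 in mutants and 10.73, 10.83, 10.87 and 10.73 in controls, narrower spreads than in the *Sox1Cre* line at E13.5. Between the lowest and the highest library of a group the geometric mean of the genes differed 1.28-fold in *Sox1Cre* mutants at E13.5, 1.26-fold in their controls and 1.06-fold in *NestinCre* mutants. In both *Sox1Cre* groups at E13.5 this range exceeded the distance between the lowest and the highest group mean, which were 10.64 ± 0.155 (SD, n = 4) in *Sox1Cre* mutants at E13.5 and 10.80 ± 0.0608 in *Sox1Cre* controls at E12.5. The control means at E13.5 were 10.69 ± 0.152 in the *Sox1Cre* line and 10.79 ± 0.0721 in the *NestinCre* line. Without A1 and A5 the *Sox1Cre* means at E13.5 were 10.56 ± 0.0528 in mutants and 10.62 ± 0.0888 in controls (n = 3).

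**Figure D1:**
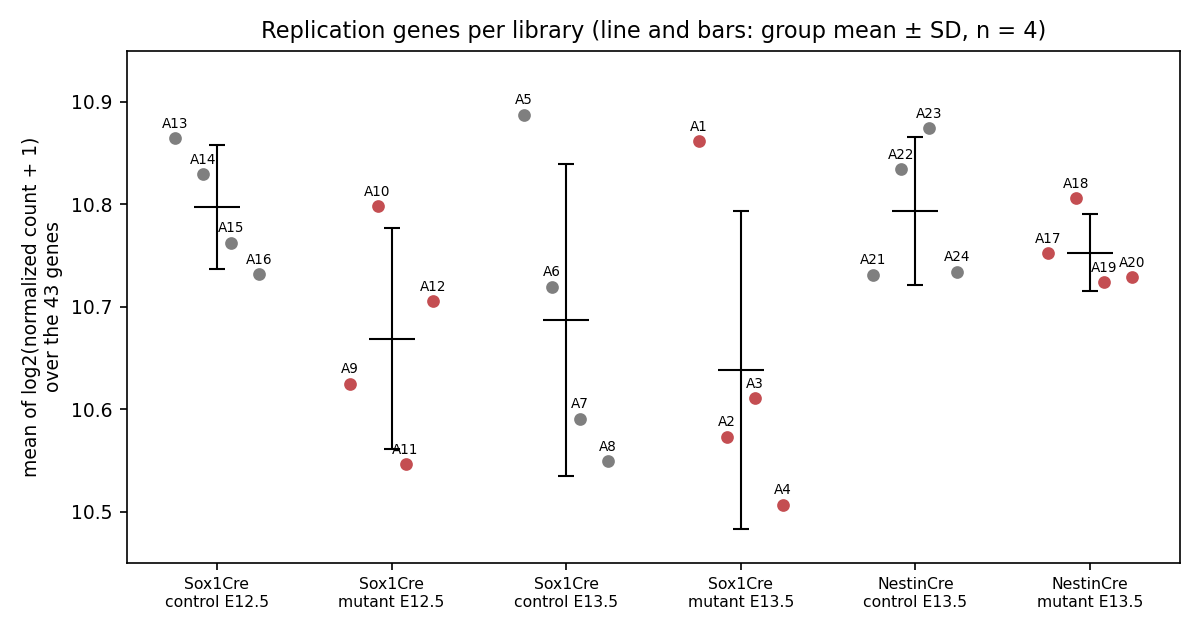
Mean of log2(normalized count + 1) over the 43 replication genes (y axis, not starting at 0) for each library, by group on the x axis; points are libraries and bars the group mean ± SD, n = 4. A1 (10.86) and A5 (10.89) lie above the rest of their groups, and the 4 *NestinCre* mutants lie within 10.72 to 10.81.

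In A1, 42 of the 43 genes were above their own group mean, and in A4, a library of the same group, 0 were. In A10 43 of 43 were above, against 1 of 43 in A11, also a *Sox1Cre* mutant at E12.5. Among E13.5 controls, A5 had 42 genes above its group mean and A8 had 4, and A23 had 40 and A24 had 6. Over all tested genes this share stayed near the middle in every library (51.6% in A1). For each gene, the libraries were counted in which it lay on the same side of its group mean as the average of the other listed genes. The median was 20 of 24 libraries, beside 12 for the other tested genes. Of the 43 genes, 26 (60.5%) reached 20 or more, beside 3.48% of the 16411 other genes, which were not matched to them by level. *Mcm3* and *Rfc4*, a helicase subunit and a subunit of the clamp loader, reached 24 of 24. *Mcm2*, *Mcm5*, *Mcm7*, *Rfc5* and *Rrm1* reached 23.

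The genes that followed the rest least were *Rfc1* (14 of 24), which encodes the large subunit of the clamp loader, *Gins4* and *Pole2* (15), and *Gins2*, *Gins3*, *Pold2* and *Ccne2* (16). Members of 1 complex thus differed: *Rfc4* and *Rfc5* encode partners of *Rfc1*, and *Pold1*, at 19, encodes the partner of *Pold2*. In the annotation, 15 of the 43 genes share exon bases with another gene. Among those that followed the rest least, *Gins2* shares 2758 bases with *Gse1* and *Ccne2* 609 with *Ints8*, both on the opposite strand, and *Pole2* 245 with *Gm49384* on the same strand, while *Rfc1*, *Gins3*, *Gins4* and *Pold2* share none. Among those that followed most, *Rfc4* shares 194 with *Eif4a2*, *Rfc5* 499 with *Wsb2* and *Mcm7* 321 with *Ap4m1*, all on the opposite strand. The strand setting of the counting is not given in the sources used here, so reads of such pairs cannot be told apart and these values are uncertain. The median was 21 libraries both for the 14 genes with E2F letters and for the 20 with a window and no such letters, and 19 for the 9 without a window. All of these counts describe 24 libraries that share their dissection, and no test was made of them.

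**Figure D2:**
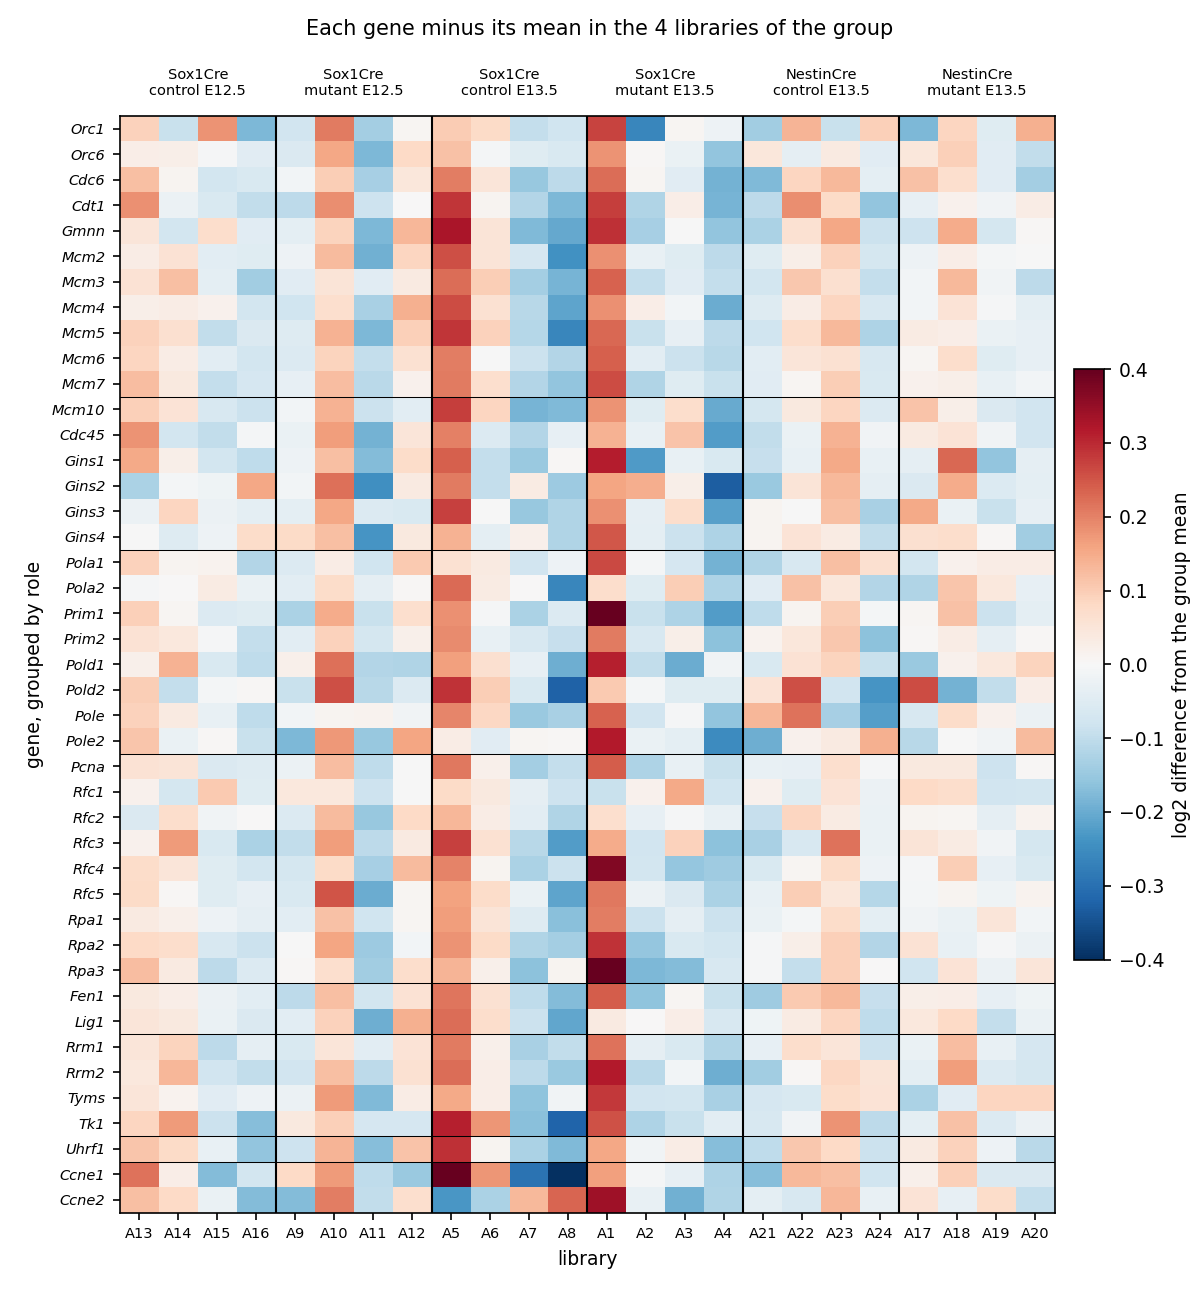
Heat map of each gene (rows, grouped by role) in each library (columns A1 to A24), coloured by its log2 difference from the mean of its group's 4 libraries. Columns A1, A5 and A10 are high and A4 and A11 low in nearly every row, while the row of *Rfc1* follows the others least.

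Other cell cycle lists moved with the replication genes, and lists of cell types were on the same side as them in fewer libraries. The mean of 51 other replication and S-phase genes (the rest of the origin, polymerase, fork and chromatin assembly machinery) lay on the same side of its group mean as that of the 43 genes in 23 of 24 libraries. The mean of 20 mitosis genes did so in 23, and that of 18 E2F, RB and S-phase kinase genes in 22. Gene by gene, 15 of the 20 mitosis genes were on the side of the 43 genes in 20 or more libraries. So were 19 of the 51 other replication genes and 7 of the 18 E2F, RB and kinase genes. Lists of neural progenitors (14 of 24), intermediate progenitors (14), neurons (11), ventral telencephalon (12) and meninges (12) were divided, and erythroid genes were on the same side in 17. Cajal-Retzius cells, the cortical hem and microglia were on the same side in 8 libraries, and endothelium and pericytes in 9. The choroid plexus list, whose most abundant gene is *Ttr*, was on the same side in 3 libraries and on the opposite side in 21. Its summed level was 7609, 71272, 86648 and 64463 normalized counts in A1 to A4 and 30318, 28680.2, 65805 and 53974 in A5 to A8, that is, low where the replication genes were high. In the *Sox1Cre* line at E12.5 it was 35168, 32999, 42702 and 20449.6 in mutants and 20077, 16553, 25221 and 28973 in controls. In the *NestinCre* line it was 54032, 19766, 34983 and 60834 in mutants and 55407, 36043, 39788 and 46008 in controls. All 6 choroid plexus genes were tested and none was at 0 in any library. Their part in the levels of the replication genes was not tested. The number of reads on genes was on the same side in 13 libraries.

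**Figure D3:**
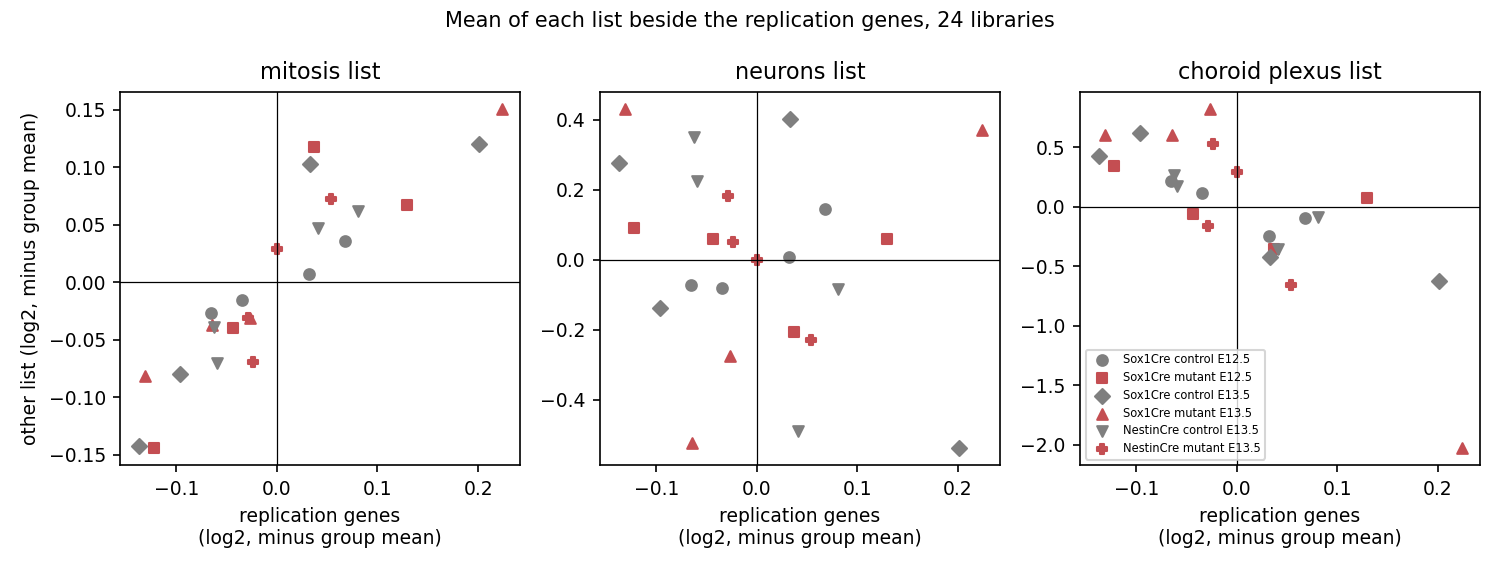
Mean log2 level of 3 other gene lists (y axes) against that of the 43 replication genes (x axes), both after subtraction of the group mean, 1 point per library and 1 symbol per group. The mitosis list is on the same side as the replication genes in 23 of 24 libraries, the neuron list in 11 and the choroid plexus list in 3.

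To ask whether loss of *Sox9* changed these genes at E12.5, *Sox1Cre* mutants were compared with their controls. 41 of the 43 genes had a lower mean in mutants, all but *Orc1* and *Gins2*, with a median log2 change of -0.13, beside a median within 0.008 of 0 for all tested genes. All changes lay between -0.42 and 0.07, and with each library left out in turn the median lay between -0.17 and -0.10. As the genes moved together from library to library, counts of genes here and below are not counts of independent observations. The mean of log2(normalized count + 1) over the 43 genes was 10.67 ± 0.108 (SD, n = 4) in these mutants and 10.80 ± 0.0608 in controls, and the groups overlapped. In the same comparison 5 of 6 choroid plexus genes had a higher mean in mutants (median 0.46; none passed in limma, and 0 had an unadjusted *p* under 0.05), and their part in the values of the replication genes was not tested. *Rrm2* alone passed the threshold, 1 of 43 genes, where 0.723% of all tested genes did, and 10 of 43 had an unadjusted *p* under 0.05, beside 2217 of 16454 tested genes. In 9 of the 43 genes all 4 mutants lay below all 4 controls, beside 5.93% of all genes: *Mcm6*, *Pola1*, *Prim1*, *Pole*, *Pole2*, *Pcna*, *Rfc1*, *Rpa2* and *Rrm2*. The median change was -0.13 in origin licensing (10 of 11 negative), -0.10 in helicase activation (5 of 6), -0.15 in polymerases and primase (8 of 8) and -0.09 in the clamp, clamp loader and RPA genes (9 of 9).

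*Rrm2* (ENSMUSG00000020649, chr12:24708241-24714146, plus strand) encodes the small subunit of ribonucleotide reductase, the enzyme that makes deoxynucleotides. At E12.5 it had 3934, 4518, 3860.2 and 4334 normalized counts in mutants and 5716, 6076, 5263 and 5178 in controls. The groups did not overlap, and *Rrm2* fell by 0.42 on the log2 scale (4161 ± 316 against 5558 ± 418, SD, n = 4; standard error 0.0964, limma adjusted *p* = 0.0433; exact permutation test, *p* = 0.0286, the smallest that 4 against 4 allows). The controls were all female and the mutants of both sexes, so that male mutants had no male controls beside them. The part of sex in this change was not tested. The large subunit gene *Rrm1* had a log2 change of -0.12 (adjusted *p* = 0.483). The change of *Rrm2* lay between -0.44 and -0.38 in 11 other settings of the fit and between -0.46 and -0.37 in 8 fits that left out a library. The call did not hold with log2 *Xist* as a covariate (-0.40, adjusted *p* = 0.0949), with no filter on low values (0.0651) or with edgeR (0.0518), and held in 1 of the 8, the one without A10. Next in order came *Rpa2*, which encodes a subunit of RPA (log2 change -0.27, standard error 0.0859, limma adjusted *p* = 0.167), *Pole2* of DNA polymerase epsilon (log2 change -0.32, standard error 0.104, limma adjusted *p* = 0.17) and *Pola1*, the catalytic subunit of polymerase alpha (log2 change -0.23, standard error 0.0746, limma adjusted *p* = 0.179). *Pcna* and *Mcm6* had changes of -0.20 and -0.20 (both adjusted *p* = 0.227). None of these 5 passed the threshold. When libraries were weighted, all of them did (adjusted *p* 0.0202 to 0.0323), with *Rrm2* (-0.44, adjusted *p* = 0.00141) and *Prim1* (-0.28, 0.0297), 7 of 43 genes, beside 3.51% of all genes in that fit.

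**Figure D4:**
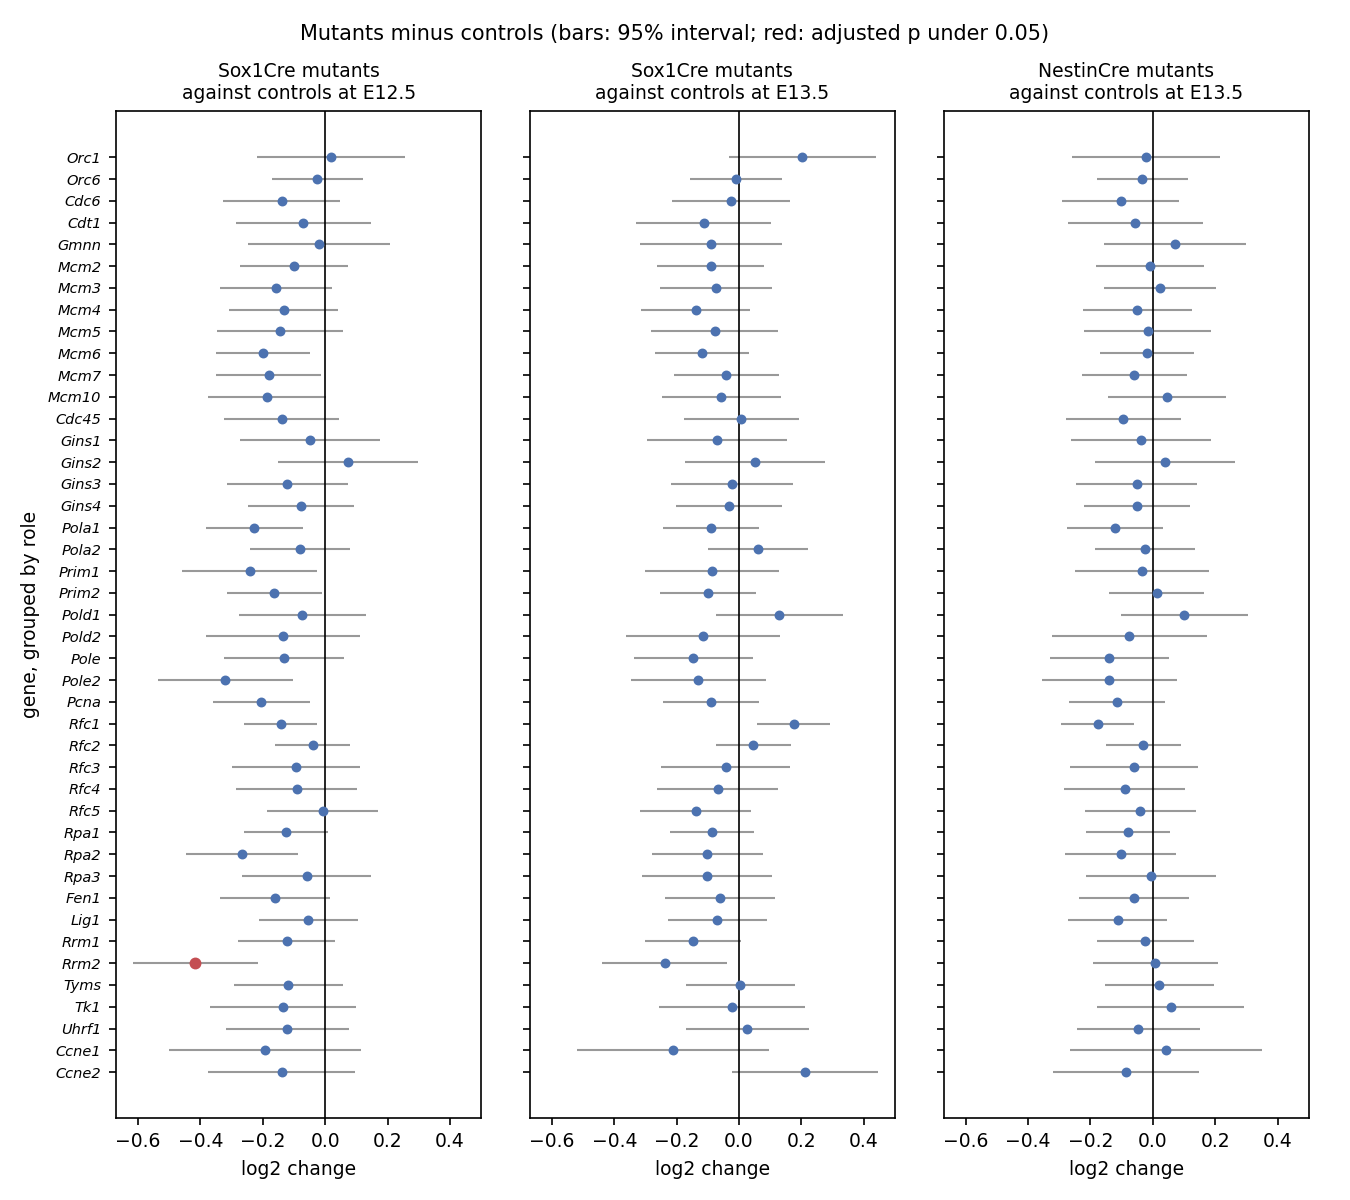
Log2 change in mutants against their controls (x axes) for the 43 genes (y axis, grouped by role), in 3 panels. From left to right they show *Sox1Cre* at E12.5, *Sox1Cre* at E13.5 and *NestinCre* at E13.5. Points are fitted changes, bars 95% intervals, and red marks an adjusted *p* under the threshold. *Rrm2* at E12.5, at -0.42, is the red point, and 41 of 43 points in that panel lie below 0.

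The same comparison at E13.5 gave 0 of 43 genes past the threshold in limma, beside 0.924% of all genes, and 2 of 43 at an unadjusted *p* under 0.05, beside 11.7%. DESeq2 and edgeR also gave 0, beside 2.18% and 0.887% of all genes. 33 of 43 changes were negative and the median was -0.07, with single changes between -0.24 and 0.21. Without A1 the median was -0.15, without A5 0.01 and without both -0.07. The median standard error was 0.090, and the 95% intervals of the 43 changes reached from -0.52 to 0.45. The controls here were all male and the mutants of both sexes. *Rrm2* had 5243, 3903, 4179 and 3674 normalized counts in mutants and 5795, 5058, 4619.8 and 4482 in controls. A2 to A4 lay below every control, and A1 lay above 3 of the 4 (log2 change -0.24, standard error 0.0964, limma adjusted *p* = 0.325; exact permutation test, *p* = 0.143). Without A1 the change was -0.34 (limma adjusted *p* = 0.0347; 1 of 43 genes, beside 3.13% of all in that fit), and without A1 and A5 it was -0.27 and no listed gene passed. A1 is the mutant library where the listed genes were highest, so a more negative change without it follows from that choice. Of the 11 origin licensing genes, 10 were negative, and the one with the lowest *p* was the positive one, *Orc1* (log2 change 0.20, standard error 0.114, limma adjusted *p* = 0.522). *Mcm4* and *Mcm6* followed with changes of -0.14 and -0.12 (adjusted *p* = 0.555 and 0.564).

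*Ccne2* (ENSMUSG00000028212, chr4:11191351-11204779, plus strand), which encodes cyclin E2, had 737, 569.8, 509 and 535 normalized counts in *Sox1Cre* mutants at E13.5 and 427, 459.5, 549 and 589 in controls. A1 was the highest and the groups overlapped (log2 change 0.21, standard error 0.113, limma adjusted *p* = 0.495; exact permutation test, *p* = 0.257). Without A1 and A5 the change was 0.02. In the controls *Ccne2* was lowest in A5 and highest in A8, the reverse of most listed genes. At E12.5 it had 429, 559, 452 and 507 in mutants and 579, 564, 524 and 473 in controls, and in the *NestinCre* line 577, 543, 585 and 519.9 and 574, 564, 647 and 578. *Ccne1*, the other E cyclin gene, had a change of -0.21 at E13.5 (adjusted *p* = 0.635), the other way from *Ccne2*.

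In *NestinCre* mutants at E13.5, 0 of 43 genes passed, beside 0.0669% of all genes, and 1 was at an unadjusted *p* under 0.05, beside 6.47%. DESeq2 and edgeR gave 0, beside 0.225% and 0.0304% of all genes. The median change was -0.04 (-0.07 to -0.02 with each library left out in turn, -0.06 without A18), 33 of 43 were negative, and all lay between -0.18 and 0.10, with 95% intervals from -0.36 to 0.35. All 9 clamp, clamp loader and RPA genes were negative (median -0.08), whereas 1 of the 4 deoxynucleotide genes was. In *Pcna* and *Rfc1* the 4 mutants lay below the 4 controls, 2 of 43 genes, beside 2.8% of all genes. *Pole*, the catalytic subunit of polymerase epsilon (ENSMUSG00000007080, chr5:110286306-110337474, plus strand), had 2174, 2392, 2303 and 2237 normalized counts in mutants and 2751, 2916, 2286 and 2153 in controls. A21 and A22 were above all mutants and the other 2 controls were not (log2 change -0.14, standard error 0.092, limma adjusted *p* = 0.931; exact permutation test, *p* = 0.343). In *Sox1Cre* mutants at E13.5 *Pole* had 2827, 2274, 2392 and 2149.6, against 3041, 2809, 2391 and 2426 in controls. At E12.5 it had 2759.6, 2802, 2811 and 2754, against 3251, 3128, 2990.0 and 2842, without overlap (log2 change -0.13, adjusted *p* = 0.559).

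*Rfc1* (ENSMUSG00000029191, chr5:65261850-65335670, minus strand) took different directions in the comparisons. In *Sox1Cre* mutants at E13.5 it had 2566, 2763, 3032 and 2579 normalized counts, against 2548, 2485, 2359 and 2284 in controls. In *NestinCre* mutants it had 2765, 2742, 2479 and 2486, against 2991, 2855, 3070.1 and 2908 in controls. In *Sox1Cre* mutants at E12.5 it had 2377, 2379.6, 2180.0 and 2304, against 2578, 2428, 2739 and 2464 in controls. The 4 mutants were all higher than controls in the first comparison and all lower in the other two, each without overlap (exact permutation test, *p* = 0.0286 in each). It was the only listed gene higher without overlap in the first, where 2.46% of all genes were. None of the changes passed the threshold over all genes: 0.17 (adjusted *p* = 0.171), -0.18 (0.482) and -0.14 (0.265). When libraries were weighted the first was 0.28 and passed (adjusted *p* = 0.00705), the one listed gene of 43 that did, beside 5.85% of all genes in that fit.

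The mutant change in *Rfc1* differed by 0.35 between the Cre lines (standard error 0.0794, limma adjusted *p* = 0.132) and by 0.32 between E13.5 and E12.5 in the *Sox1Cre* line (adjusted *p* = 0.523), neither past the threshold. Between Cre lines it passed with DESeq2, with library weights, without A1 (0.38, adjusted *p* = 0.0261; 1 of 43 genes, beside 0.877% of all) and without A1 and A5 (0.41, adjusted *p* = 0.0295; 1 of 43, beside 0.561%), and in none of the other 15 fits that left out a library. No listed gene passed for the difference between Cre lines, where 0.0425% of all genes did, or between ages, where 0% did (0 genes in limma, 1217 at an unadjusted *p* under 0.05). Of the 43 genes, 1 had an unadjusted *p* under 0.05 for the first difference, beside 8.27% of all, and 2 for the second, beside 7.4%. *Ccne2* had differences of 0.30 and 0.35 (adjusted *p* = 0.677 and 0.652). The median difference was -0.00 between the lines and 0.08 between the ages, the mutant change being less negative at E13.5 for 32 of 43 genes. Without A1 these medians were -0.09 and 0.00, without A5 0.06 and 0.16, and without both -0.04 and 0.08. The changes at E13.5 share no library with those at E12.5.

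*Tk1*, which encodes thymidine kinase, lies 5.03 Mb from *Sox9* on the same chromosome (ENSMUSG00000025574, chr11:117815526-117826092, minus strand) and is the listed gene nearest to the floxed allele. It had 1414, 1089, 1113 and 1151 normalized counts in *Sox1Cre* mutants and 1493, 1361, 1072 and 965 in controls at E13.5. At E12.5 it had 1128, 1172, 1046 and 1046 and 1278, 1355, 1134 and 1069, and in the *NestinCre* line 1318, 1467, 1303 and 1329.7 and 1245, 1288, 1474 and 1209.8. Mutants and controls overlapped each time, with log2 changes of -0.02, -0.13 and 0.06 (adjusted *p* = 0.972, 0.636 and 1).

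The ages were compared within the *Sox1Cre* line, with the same libraries as in the mutant comparisons. Between E12.5 and E13.5, 38 of 43 genes had a lower mean at the later age in *Sox1Cre* controls, with a median change of -0.12 (-0.19 without A5, -0.07 without A8). *Pola2* passed the threshold, 1 of 43, where 11.5% of all tested genes did, and it was also the only listed gene without overlap on the lower side (8.74% of all genes). *Pola2* (ENSMUSG00000024833, chr19:5940542-5964202, minus strand) encodes the regulatory subunit of polymerase alpha. It had 1567, 1574, 1608 and 1543 normalized counts at E12.5 and 1493, 1306, 1278 and 1066 at E13.5, and fell by 0.30 on the log2 scale (standard error 0.0771, limma adjusted *p* = 0.0161; exact permutation test, *p* = 0.0286). These E12.5 controls were female and the E13.5 controls male, so that age and sex cannot be told apart. With log2 *Xist* as a covariate the change was -0.23 (adjusted *p* = 0.259), and 0 of the 16454 genes passed (0%), the listed ones included. The call also did not hold when only the 8 libraries of the comparison were fitted (-0.30, adjusted *p* = 0.0614) or without A8 (-0.21, 0.0668), where 11.3% and 5.33% of all genes passed, and held in the other 7 fits that left out a library. Without A5, 6 genes passed, beside 16% of all genes in that fit, and without A1 and A5, 18 did, beside 21.2%, *Pola2*, *Uhrf1*, *Mcm6* and *Cdt1* among them, all lower at E13.5. A5 has the highest levels of its group, so the direction of that change follows from leaving it out.

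In *Sox1Cre* mutants the median change with age was -0.04 (-0.13 without A1, 0.01 without A10), 25 of 43 were negative, and 1 gene passed, where 25.9% of all genes did. This was *Rfc1*, which rose by 0.24 (adjusted *p* = 0.00391), with the 4 E13.5 mutants above the 4 at E12.5 (1 of 43 genes, beside 12.4% of all). *Pola2* had 1399, 1288, 1427 and 1222 at E13.5 and 1445, 1567, 1450.5 and 1491 at E12.5, lower without overlap (1 of 43, beside 10.8% of all), with a change of -0.16 that did not pass (adjusted *p* = 0.132). Without A1, 8 listed genes passed, beside 23.7% of all genes in that fit, and without A1 and A5, 9, beside 25.6%: *Cdt1*, *Gmnn*, *Pole*, *Mcm6*, *Rfc5*, *Rrm1*, *Orc6* and *Gins2* were lower at E13.5 and *Rfc1* was higher. Markers of other cell types changed between the same groups. Of 15 neuron genes, 11 rose in controls and 12 in mutants, with medians of 0.86 and 1.08, and *Neurod6*, a factor of postmitotic neurons, rose by 2.97 in controls. Of 10 erythroid genes, whose most abundant is *Hbb-y*, 7 fell in controls, and 6 fell and 1 rose in mutants. Of 10 neural progenitor genes, none passed in controls (limma; 5 at an unadjusted *p* under 0.05, median 0.16), and 6 rose and 1 fell in mutants (median 0.37). Of 11 archicortex and cortical hem genes, 5 fell and 1 rose in controls, and 6 fell and 3 rose in mutants. Of 7 Cajal-Retzius genes, 2 rose and 1 fell in controls, and 2 rose and 4 fell in mutants. Of 6 intermediate progenitor genes 2 rose in each, and of 7 meninges genes 1 rose in controls, and 3 fell and 1 rose in mutants. Of 6 choroid plexus genes none passed in controls (limma; 2 at an unadjusted *p* under 0.05, 5 positive, median 0.75), and 2 rose in mutants (median 0.22). A median without A1 is not given for this list. The mean log2 level of these genes was 8.42 in A1, 11.05 to 11.27 in A2 to A4 and 9.62 to 10.32 in A9 to A12. Of 7 endothelium and pericyte genes 1 rose in each, and no ventral telencephalon or microglia gene passed (limma; no more than 2 of a list at an unadjusted *p* under 0.05). Beside these counts stand the 11.5% and 25.9% of all genes that passed. None of the neuron, erythroid, progenitor, hem, Cajal-Retzius, meninges, choroid plexus, endothelium or microglia genes was at 0 in any library. Their part in the replication genes' values was not tested.

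Controls of the 2 lines at E13.5 were also compared, again with libraries that serve the mutant comparisons. In *NestinCre* controls 37 of 43 genes were higher than in *Sox1Cre* controls, with a median of 0.09 (0.16 without A5, 0.04 without A8), and 1 passed, beside 0.243% of all genes. It was *Rfc1*, 0.29 higher (standard error 0.0562, adjusted *p* = 0.0328), with no overlap between the groups. It passed in 1 of 8 fits that left out a library (adjusted *p* 0.0367 to 0.118), and not when only the 8 libraries of the comparison were fitted (0.0806). *Orc1* and *Rfc1* were the 2 listed genes higher without overlap, beside 2.86% of all genes. *Pold2*, a subunit of polymerase delta (ENSMUSG00000020471, chr11:5872180-5878292, minus strand), had 1444, 1663, 1320.1 and 1182 normalized counts in *NestinCre* controls and 1223, 1072, 959.7 and 799 in *Sox1Cre* controls. 3 of the 4 *NestinCre* controls were above all *Sox1Cre* controls, with the widest difference of the 43 genes (log2 change 0.47, standard error 0.119, limma adjusted *p* = 0.105). Without A1 and A5 it passed (0.57, adjusted *p* = 0.037), 1 of 2 listed genes that did, beside 0.482% of all. In mutants *Pold2* had 1583, 1158, 1235 and 1346 in the *NestinCre* line and 993, 919, 894 and 895 in the *Sox1Cre* line at E13.5. At E12.5 it had 980.3, 1246, 964 and 1003 in mutants and 1227, 1071, 1139 and 1150.4 in controls. Other lists also differed in their means: 10 of 10 erythroid genes were higher in *NestinCre* controls (median 0.33), while 13 of 15 neuron genes (-0.13), 8 of 11 archicortex and hem genes (-0.17) and 6 of 7 Cajal-Retzius genes (-0.22) were lower. None of these genes passed (limma; 0, 1, 2 and 1 at an unadjusted *p* under 0.05 in that order), and their part in the replication genes' values was not tested. The lines differ in Cre allele and may differ in breeding, which cannot be told apart here.

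**Figure D5:**
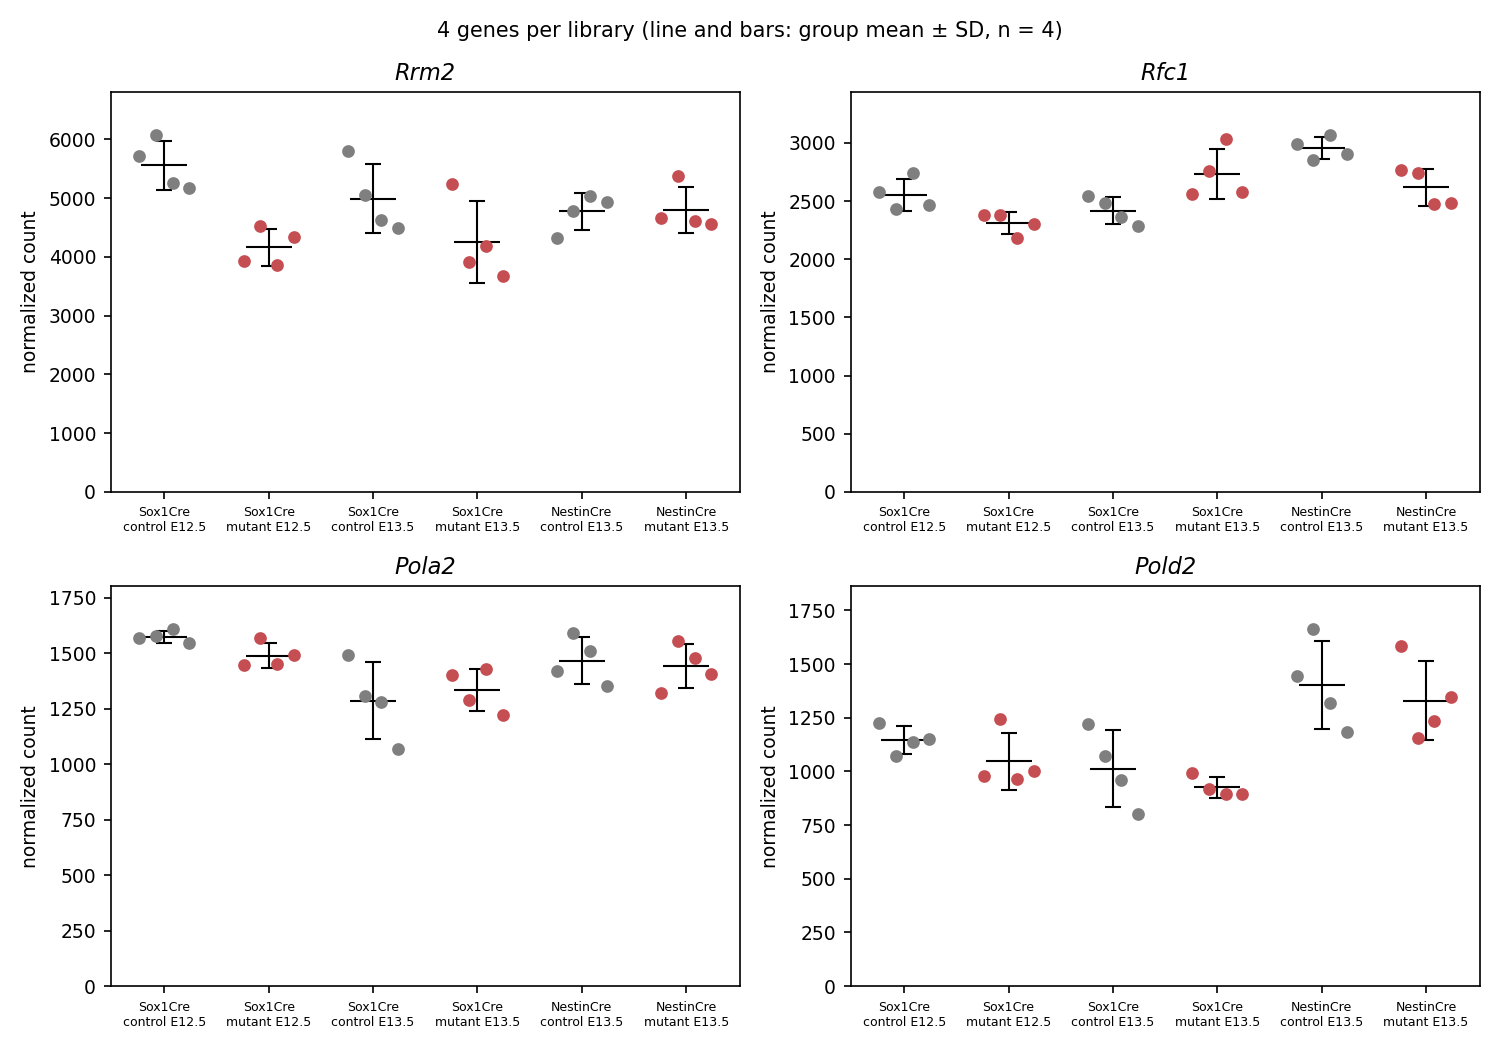
Normalized counts (y axes, from 0) of *Rrm2*, *Rfc1*, *Pola2* and *Pold2* in the 24 libraries, by group on the x axes; points are libraries and bars the group mean ± SD, n = 4. *Rrm2* is lower in the E12.5 mutants than in their controls without overlap, *Rfc1* is highest in the *NestinCre* controls, *Pola2* is highest in the E12.5 controls and *Pold2* in the *NestinCre* groups.

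When differences among the 6 groups were tested at once, 7 of 43 genes passed, beside 29.6% of all genes: *Rfc1* (adjusted *p* = 0.00094), *Pold2* (0.00347), *Pole* (0.0124), *Rrm2* (0.0152), *Pola2* (0.0365), *Pola1* (0.0488) and *Mcm6* (0.0489). *Pola1* lies on the X chromosome. The range between the lowest and highest group mean had a median of 0.26 on the log2 scale, the same as for tested genes with a mean of at least 100 (0.26). *Pold2* had the widest range, 0.59, and *Gins1* the narrowest, 0.08. The mean was highest in *Sox1Cre* controls at E12.5 for 24 genes and in *NestinCre* controls for 13, and lowest in *Sox1Cre* mutants at E13.5 for 17 and in those at E12.5 for another 17. Without A1 and A5, 34 of 43 genes passed, beside 42.6% of all genes. As both are the highest libraries of their groups in these genes, leaving them out narrows the spread that the test uses.

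The rest of the replication machinery was counted in the same way. Of the 51 other replication and S-phase genes, 49 were lower in *Sox1Cre* mutants at E12.5, with a median of -0.13. 17 had an unadjusted *p* under 0.05, beside 10 of the 43 and 2217 of the 16454 genes, and 1 fell, beside 0.723%: *Orc3*, a subunit of the origin recognition complex (log2 change -0.21, standard error 0.0483, limma adjusted *p* = 0.0442). *Hells*, a chromatin remodeller, and *Brca1*, of homologous repair, had changes of -0.27 and -0.16 (adjusted *p* = 0.158 and 0.2). At E13.5 none of the 51 passed in *Sox1Cre* mutants (32 negative, 2 at an unadjusted *p* under 0.05) or in *NestinCre* mutants (41 negative, 2). With age, 2 of 51 passed in controls, beside 11.5% of all genes, and 5 of 51 in mutants, beside 25.9%. *Orc3* and *Chtf8* fell in controls (-0.20 and -0.19, adjusted *p* = 0.0125 and 0.0194), and in mutants *Orc4*, *Pole4* and *Orc2* rose (0.45, 0.26 and 0.27) and 2 fell.

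Of 18 E2F, RB and S-phase kinase genes, none passed in the mutant comparisons (limma; 2, 1 and 1 at an unadjusted *p* under 0.05 in *Sox1Cre* at E13.5, *NestinCre* and *Sox1Cre* at E12.5). With age, 2 of 18 passed in controls and 5 of 18 in mutants, shares near the 11.5% and 25.9% of all genes. In controls 2 fell, *E2f7* (-0.66, adjusted *p* = 0.00618), a repressor of the family, and *E2f5* (-0.31, 0.025). In mutants 3 fell, *E2f7* (-0.87, 0.000339), *E2f6* (-0.35, 0.00935) and *E2f5* (-0.29, 0.0149), and 2 rose. Of 20 mitosis genes, none passed in the mutant comparisons, where 17, 12 and 16 were negative in that order and 2, 1 and 2 were at an unadjusted *p* under 0.05. All 20 were lower at E13.5 in *Sox1Cre* controls (median -0.11, 0 past the threshold in limma and 4 at an unadjusted *p* under 0.05, beside 26.7% of all genes). In mutants 4 of 20 passed, beside 25.9% of all: *Ccnb2* (-0.33), *Birc5* (-0.36) and *Plk1* (-0.25) fell and 1 gene rose. In *NestinCre* against *Sox1Cre* controls 19 of 20 were higher (median 0.13), the proliferation marker *Mki67* by 0.63 (adjusted *p* = 0.071).

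Among markers of cell types, 1 of 10 neural progenitor genes and 1 of 7 Cajal-Retzius genes fell in *Sox1Cre* mutants at E13.5, where 0.924% of all genes passed: *Vim*, an intermediate filament of progenitors (-0.26, adjusted *p* = 0.0289), and *Ebf3* (-0.32, 0.0352). In this comparison no gene of the other marker lists passed and no more than 2 of a list had an unadjusted *p* under 0.05, and the medians were -0.25 for 7 meninges genes, -0.35 for 7 endothelium and pericyte genes, -0.11 for 6 microglia genes and 0.17 for 15 neuron genes. Medians without A1 are not given for these lists. The summed endothelium and pericyte level was 5270 in A1, 10439 to 13422 in A2 to A4 and 10939 to 12168 in A5 to A8. In that order the sums were 17518, 28799 to 42319 and 30554 to 42675 for meninges. For microglia they were 858, 1278 to 1811 and 1209 to 1722, and for neurons 62062, 38907 to 62471 and 39033 to 60470. In *Sox1Cre* mutants at E12.5 no gene of the marker lists passed and no more than 1 of a list had an unadjusted *p* under 0.05, and the medians were 0.46 for 6 choroid plexus genes, -0.05 for 10 neural progenitor genes and -0.08 for 15 neuron genes. In *NestinCre* mutants none passed either, with no more than 2 of a list at an unadjusted *p* under 0.05 and medians of 0.44 for 5 ventral telencephalon genes, -0.18 for choroid plexus and 0.10 for neurons. Medians without A18 are not given for these lists. The summed ventral telencephalon level was 2155 in A18, 1032 to 1172 in A17, A19 and A20 and 840 to 1051 in A21 to A24. For choroid plexus the sums were 19766, 34983 to 60834 and 36043 to 55407 in that order. Whether cell composition had a part in the lower means of the replication genes was not tested.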

How the data were processed

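Libraries of mRNA (KAPA mRNA HyperPrep) from snap-frozen archicortex were sequenced on an Illumina HiSeq. According to the submitters' processing notes the authors used Trimmomatic 0.36, STAR 2.5.2a, RSEM 1.2.31 and DESeq2 with GRCm38. The deposited signal per gene is an RSEM estimated count, made whole and scaled by the DESeq2 size factor of its library. It was not log-transformed and replicates were not pooled. The strand setting is not given in the sources used here. In each library all values were whole multiples of the smallest step (tolerance 1e-06), so whole reads were recovered for the depths and for the count models. In A3 the step is close to 1, so this check says less there. GENCODE gave names and positions (annotation of GRCm38, 51719 of 51912 identifiers named), and RefSeq the promoters.

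A gene was tested if 4 or more of the 24 libraries had a value of 10 or more. The log2(value + 1) was modelled in limma 3.58.1 (R 4.3.3) with 6 group means and a trend in the empirical Bayes step (18 residual degrees of freedom). This scale understates the change of low genes. The two-sided *p*-values were adjusted over all 16454 genes (Benjamini-Hochberg), with a threshold of 0.05. Single genes were also compared by an exact permutation test over 35 splits of 8 libraries, with a smallest *p* of 0.0286. Alternatives were pseudocounts of 0.5 and 5, other filters, quantile normalization, log2 *Xist* as a covariate, library weights, a robust empirical Bayes step, edgeR 4.0.16, DESeq2 1.42.0, the compared libraries alone, and each library left out. Leaving out A1 and A5 together was chosen after seeing the data. Each test was checked on simulated data, and the outcomes of these checks are not given here. Summaries and plots used Python 3.11.15 with pandas 2.3.3, numpy 2.4.6, matplotlib 3.10.9 and scipy 1.17.1.

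The genes described in full are, in each comparison, the listed genes past the threshold or, where none passed, those with the largest absolute change. The listed genes with the lowest *p* among the 6 groups, *Tk1* and *Sox9* were added. In the other lists the genes named are among the lowest *p*. The 43 genes, the other lists and the tests were chosen with earlier results of these data known, so no list was tested as a set and no value adjusted over a list is given. Intervals cover 95%. No source used here names molecular identifiers, so reads are not taken as independent molecules.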

Additional observations from a re-analysis of the deposited data

Results flagged for a closer look

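6 values stood out. In 54 groups of 4 values (8 genes and the mean of the 43 genes, in 6 groups) the highest or lowest library was set against the others with Dixon's ratio, at its 95% critical value for 4 values, and 4 passed. Chance alone gives about 1 in 20. In *NestinCre* mutants A18 was high in *Rrm2* (5375 normalized counts, against 4557 to 4655 in the other 3) and in *Tk1* (1467, against 1303 to 1330). Both genes supply deoxynucleotides, and A18 also had the highest mean of the 43 genes in its group, the highest ventral telencephalon sum of the 24 libraries (2155 normalized counts) and the lowest choroid plexus sum of its group (19766). The part of these in both values was not tested. In *NestinCre* controls A23 was high in *Ccne2* (647, against 564 to 578), and it too had the highest mean of its group. In *Sox1Cre* mutants at E12.5 A10 was high in *Pold2* (1246, against 964 to 1003), and 43 of 43 genes were above their group mean there.

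The mutant changes of *Rfc1* had opposite signs in 2 pairs of comparisons, and none of these changes passed over all genes. The 4 *Sox1Cre* mutants at E13.5 lay above their controls, while the 4 *NestinCre* mutants and the 4 *Sox1Cre* mutants at E12.5 lay below theirs. The difference of the changes was 0.35 on the log2 scale between the Cre lines (limma adjusted *p* = 0.132) and 0.32 between the ages (adjusted *p* = 0.523), so that neither passed over all genes.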

How the results depend on the processing

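Of 198 values of single genes under 11 other settings of the fit (18 results), 189 kept their direction and their side of the threshold, 7 kept the direction and no longer passed, 2 kept it and newly passed, and 0 turned. The number of the 43 genes past the threshold moved more, and is given with the share of all tested genes that passed in the same fit. With library weights it was 1 in *Sox1Cre* mutants at E13.5 (5.85%), 7 at E12.5 (3.51%), 8 with age in controls (19.7%) and 7 in mutants (33.7%), 2 between controls (0.656%), 1 for the difference between lines (2.24%) and 33, from 7, among the 6 groups (51.5%, from 29.6%). With log2 *Xist* as a covariate it was 0 in *Sox1Cre* mutants at E12.5 (0.535%), 0 with age in controls (0% of all genes) and 4 among the groups (23.7%). Without a filter it was 0 in *Sox1Cre* mutants at E12.5 (0.332%) and 4 among the groups (13.8%), and with edgeR 0 at E12.5 (0.644%). With DESeq2 it was 2 between controls (0.924%), 1 between lines (0.596%) and 11 among the groups (37.6%). Quantile normalization gave 2 with age in mutants (27.3%), and the compared libraries alone gave 0 with age in controls (11.3%) and 0 between controls (0.201%). Without A1 and A5 it was 18 with age in controls (21.2%), 9 in mutants (25.6%), 2 between controls (0.482%), 1 between lines (0.561%) and 34 among the groups (42.6%), and the *Rfc1* difference between lines was 0.41. With each library left out in turn the counts ranged from 0 to 1 in *Sox1Cre* mutants at E13.5 and at E12.5, between controls and between lines. They ranged from 0 (without A8, 5.33%) to 6 (without A5, 16%) with age in controls, from 1 to 8 (without A1, 23.7%) in mutants and from 4 to 21 among the groups (39% without A1; 14 and 32.3% without A5), and stayed at 0 in *NestinCre* mutants and between ages. The change of *Tk1* in *Sox1Cre* mutants at E13.5, -0.02, ranged from -0.13 to 0.08 and turned without A2 (0.02), A3 (0.0075), A5 (0.081) or A6 (0.04), and did not pass in any fit. The *Sox9* fall passed in all 11 settings and all 8 fits without a library in both *Sox1Cre* comparisons, and in *NestinCre* mutants in 10 of 11 and 1 of 8 (adjusted *p* up to 0.109). The causes were not tested.

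No paired analysis was possible because the labels give no replicate number that is shared between groups. The libraries held 16163560 reads on genes or more. Whether depth limited the number of calls was not tested.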

Other observations

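*Orc1*, the largest subunit of the origin recognition complex and the listed gene with the lowest level, had 215, 261, 223 and 254 normalized counts in *NestinCre* controls and 200.4, 197, 175 and 177 in *Sox1Cre* controls at E13.5. The groups did not overlap, and the difference of 0.34 did not pass over all genes (limma adjusted *p* = 0.261). *Gins2*, a subunit of the GINS complex, had 643, 739, 779.5 and 695 and 674, 546, 597 and 528 in the same groups (difference 0.29, adjusted *p* = 0.335), and *Gse1* on the opposite strand shares exon bases with it. *Uhrf1*, which recognises newly copied DNA, had 6833, 6665, 6201 and 5663 in *Sox1Cre* controls at E12.5 and 6511, 5367, 4875 and 4705 at E13.5. A5 was the E13.5 control nearest to the E12.5 values (log2 change -0.25, adjusted *p* = 0.0917; without A1 and A5, -0.35 and 0.00714).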
